A study of Mus musculus with 13 samples.

Results

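Cxcr6, Cxcr3, Cxcr4, Cx3cr1, Ccr1, Ccr2, Ccr3 and Gpr183 are 8 cell-surface receptors that steer leukocytes through tissues. They were taken by their Ensembl identifiers from count tables that list 54532 mouse genes, and all 8 were present. Their messages were measured by RNA-seq in natural killer (NK) cells sorted on a BD Aria II from C57BL/6J mice aged 8 to 10 weeks. The 13 libraries fell into 4 groups. These were liver-resident NK cells (LrNK) labelled CD8KO (3 libraries), LrNK from wild type (WT, 4 libraries), conventional NK cells (cNK) labelled CD8KO (3 libraries) and cNK from WT (3 libraries). CD8KO stands for mice that lack CD8, and the allele is not given in the sources used here. The labels describe the LrNK source as liver lymphocytes and the cNK source as splenocytes, so cell type and organ cannot be told apart in any LrNK against cNK comparison. Nothing in the labels says that replicates came from separate animals, so the tests measure the spread between these samples, which may be technical.

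Chemokine receptors couple to inhibitory G proteins and turn a gradient of a secreted chemokine into directed movement. CXCR6 binds CXCL16, which the endothelium of liver sinusoids displays, and it is a known receptor of liver-resident NK and NKT cells in mice. CXCR3 answers to the interferon-induced chemokines CXCL9 and CXCL10, CXCR4 to CXCL12, which holds cells in bone marrow, and CX3CR1 to CX3CL1 on endothelium. CCR1, CCR2 and CCR3 bind inflammatory CC chemokines and are best known from monocytes, neutrophils and, for CCR3, eosinophils. GPR183 (EBI2) is no chemokine receptor by ligand: it follows oxysterols and positions B cells, T cells and innate lymphoid cells.

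The libraries held 35910292 to 47655853 counts in LrNK CD8KO, 30578631 to 42986589 in LrNK WT, 48600875 to 59670243 in cNK CD8KO and 53519657 to 72716020 in cNK WT. LrNK CD8KO libraries 2 and 3, and LrNK WT libraries 2 and 4, differed far less than the other LrNK pairs within a group. Their chi-square per degree of freedom was 2.67 and 3.04, against 196 to 283 for those pairs. For cNK pairs within a group it was 8.92 to 18.1, and these were kept separate. Each of the 2 close LrNK pairs was summed and counted as 1 sample. This left 2 LrNK CD8KO, 3 LrNK WT, 3 cNK CD8KO and 3 cNK WT samples. The biological coefficient of variation was 98.2% in LrNK and 9.60% in cNK. Fewer than 16000 genes were detected in LrNK CD8KO sample 1 and in LrNK WT samples 1 and 3, and more in every other sample. Cd8a, the gene of the CD8 alpha chain, was not lower under the CD8KO label: it had 40.7 and 47.0 CPM (read counts scaled to a common library size with TMM factors) in LrNK CD8KO against 19.8 to 21.9 in LrNK WT, and 84.6 to 107 CPM in cNK CD8KO against 0.551 to 0.571 in cNK WT. The groups are therefore called by their labels throughout. All 7 NK-cell markers were detected in every group. Their sum was 4822 and 6812 CPM in LrNK CD8KO samples 1 and 2+3, and 6228 to 8102 CPM in LrNK WT. In cNK it was 9752 to 9924 CPM under the CD8KO label and 9557 to 10005.5 CPM in WT. The summed level of 6 liver-resident markers, Itga1 and Tnfsf10 among them, was 86.9 to 124 CPM in cNK. It was 843 to 862 CPM in LrNK CD8KO and 945 to 1419 CPM in LrNK WT. The sum of 7 conventional markers, Eomes and S1pr5 among them, was 227 to 730 CPM in LrNK and 3940 to 4151 CPM in cNK.

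Of the 8 genes, 5 lie on chromosome 9 (GRCm38, GENCODE M21). Cxcr6, at chr9:123806475-123811760 on the plus strand, lies inside Fyco1, which runs on the minus strand and shares 0 exon bases with it. Ccr1 follows at chr9:123962124-123968692 on the minus strand, then Ccr3 at chr9:124021972-124031689 and Ccr2 at chr9:124101950-124113557, both on the plus strand. Ccr1 ends 53.28 kb before Ccr3 starts, and Ccr3 ends 70.26 kb before Ccr2 starts. Cx3cr1, at chr9:119901616-120069879 on the minus strand, ends 3736.6 kb before Cxcr6 and shares 78 exon bases with Gm33858, an antisense gene with at most 0.553 CPM in any sample. The other 3 lie apart: Cxcr4 at chr1:128588199-128592293, Cxcr3 at chrX:101731535-101734269 and Gpr183 at chr14:121952551-121965195, all on the minus strand, Gpr183 inside Ubac2, with which it shares 0 exon bases. All are protein-coding.

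The promoters of the 3 genes with the widest separation between LrNK and cNK are shown, as the 250 bases before the start of each gene in RefSeq (GRCm38.p6), 5′ to 3′ on the strand of the gene. They cover chr9:123806227-123806476 for Cxcr6, chr9:123968693-123968942 (minus strand) for Ccr1 and chr9:124021721-124021970 for Ccr3. Capitals mark the core recognition letters of RUNX factors, TGTGGT on either strand.
Cxcr6: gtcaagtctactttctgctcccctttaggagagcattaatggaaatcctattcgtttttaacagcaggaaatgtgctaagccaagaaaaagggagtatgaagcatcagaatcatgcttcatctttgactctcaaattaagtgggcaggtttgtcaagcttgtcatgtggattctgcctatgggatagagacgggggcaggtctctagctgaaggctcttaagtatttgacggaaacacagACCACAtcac
Ccr1: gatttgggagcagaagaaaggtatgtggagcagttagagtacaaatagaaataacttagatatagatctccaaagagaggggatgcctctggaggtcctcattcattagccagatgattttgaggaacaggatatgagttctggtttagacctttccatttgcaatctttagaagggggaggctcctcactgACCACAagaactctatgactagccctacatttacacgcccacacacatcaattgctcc
Ccr3: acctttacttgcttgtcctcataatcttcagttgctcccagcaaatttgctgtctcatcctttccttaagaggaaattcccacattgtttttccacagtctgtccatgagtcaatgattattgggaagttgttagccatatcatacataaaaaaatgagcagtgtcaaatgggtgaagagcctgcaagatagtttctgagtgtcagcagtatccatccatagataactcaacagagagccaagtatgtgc
The windows of Cxcr6 and Ccr1 each held the RUNX letters and that of Ccr3 did not. Over the 8 receptors the letters were present in 4 windows, those of Cxcr6, Ccr1, Cxcr3 and Cx3cr1, against 14.0% of all 32851 promoter windows of this length. The T-box core GGTGTG (16.3% of all windows) and the STAT motif TTCNNNGAA (7.02%), searched on both strands, were present in 0 of the 8. A match of letters does not show binding, and its absence from 250 bases says nothing about the factor.

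The first question was which receptors differ between resident and conventional NK cells. LrNK carried far more Cxcr6 and more Cxcr3 and Ccr1 than cNK under either label, and almost no Ccr3. In WT, 3 receptors were higher in LrNK (Cxcr6, Cxcr3 and Ccr1) and 1 was lower (Ccr3), by edgeR's quasi-likelihood test at an adjusted p under 0.05. Over all 16456 genes tested in WT, 20.7% were called, 10.9% higher and 9.83% lower. Under the CD8KO label, 5 receptors were higher (the same 3, Cxcr4 and Gpr183) and Ccr3 was lower, against 27% of 17795 genes called, 15.4% higher and 11.6% lower. Ccr1 had 0 counts in cNK, and Ccr3 had 0 in LrNK WT and 42 in LrNK CD8KO. Ccr1 passed the low-count filter through LrNK alone and Ccr3 through cNK alone, so the direction of each was fixed. The median log2 change of the 8 receptors was 1.19 in WT, against −0.08 over all genes tested, and 1.34 under the CD8KO label, against −0.05. In bulk RNA, fewer cells of a type and less RNA per cell cannot be told apart.

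**Figure D1:**
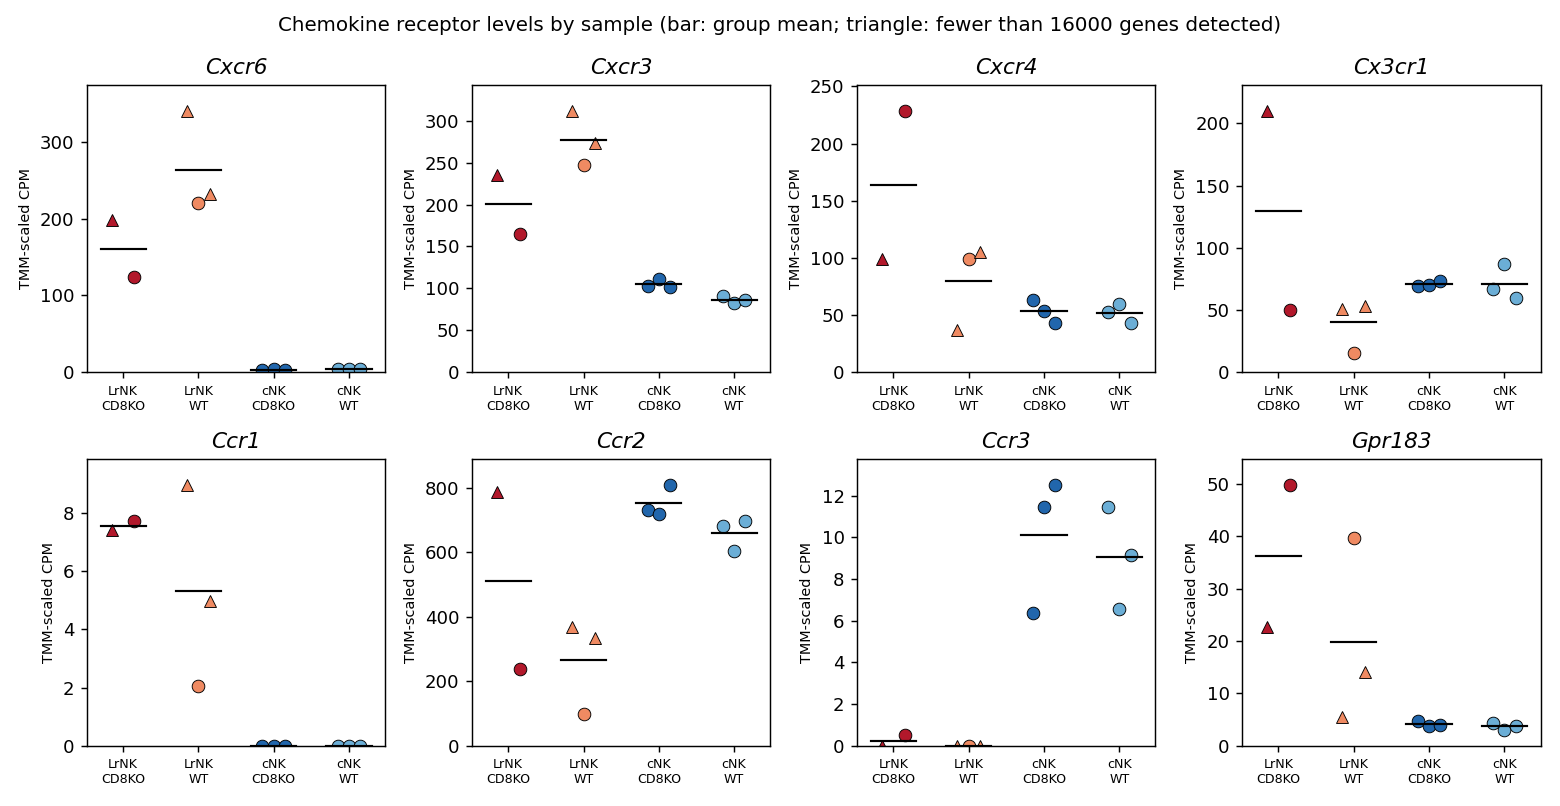
Levels of the 8 receptors in each sample, in CPM after TMM scaling (vertical axes from 0, each panel on its own scale), for LrNK CD8KO (n = 2), LrNK WT (n = 3), cNK CD8KO (n = 3) and cNK WT (n = 3). Each point is a sample, the horizontal bar is the group mean, and triangles are samples with fewer than 16000 detected genes. Cxcr6 and Ccr1 are high only in LrNK in this plot, Ccr3 is near 0 in LrNK, and the LrNK points of Cxcr4, Cx3cr1, Ccr2 and Gpr183 scatter widely.

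Cxcr6, the receptor for CXCL16, showed the clearest separation among genes present in both cell types. It had 198 and 124 CPM in LrNK CD8KO samples 1 and 2+3, against 3.25, 3.38 and 2.62 CPM in cNK CD8KO. In WT it had 340, 220 and 232 CPM in LrNK samples 1, 2+4 and 3, against 4.43, 3.46 and 3.44 CPM in cNK. Every LrNK sample lay above every cNK sample by more than an order of magnitude. The log2 difference was 5.77 ± 0.27 (SE) under the CD8KO label (adjusted p = 0.000292, edgeR) and 6.17 ± 0.27 in WT (adjusted p = 7.92e-05, edgeR). The means differed 52.2-fold and 70.0-fold. Fyco1, the gene around Cxcr6, had 31.8 to 35.3 CPM in LrNK CD8KO against 56.3 to 61.5 in cNK CD8KO, and 22.6 to 48.6 CPM in LrNK WT against 56.1 to 61.5 in cNK WT.

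Cxcr3, the receptor for interferon-induced chemokines, was abundant in all groups and higher in LrNK. It had 236 and 165 CPM in LrNK CD8KO against 103, 111 and 101 in cNK CD8KO. LrNK WT had 312, 248 and 273 CPM of it against 90.7, 82.2 and 86.1 in cNK WT. The LrNK and cNK ranges did not overlap under either label, as for 25.3% of genes tested under the CD8KO label and 18.6% in WT with LrNK higher. The log2 difference was 1.00 ± 0.18 under the CD8KO label (1.91-fold between means, adjusted p = 0.0126, edgeR) and 1.73 ± 0.13 in WT (3.21-fold, adjusted p = 0.00055, edgeR).

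Ccr1 and Ccr3, which lie close together on chromosome 9, were nearly exclusive of each other. Ccr1, a receptor of CCL3 and CCL5, had 7.42 and 7.71 CPM in LrNK CD8KO and 8.97, 2.07 and 4.97 CPM in LrNK WT. It had 0 counts in all 6 cNK samples. With a floor of 3 counts over the cNK group, Ccr1 was at least 402-fold higher in LrNK under the CD8KO label (914 counts). In WT it was at least 305-fold higher (729 counts). Ccr1 passed the low-count filter through LrNK alone, so its direction was fixed and its call adds no support.

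Ccr3, the eotaxin receptor, was the reverse. It had 0 and 0.505 CPM in LrNK CD8KO, against 6.39, 11.4 and 12.5 CPM in cNK CD8KO. In WT it had 0 counts in all 3 LrNK samples, against 11.5, 6.54 and 9.15 CPM in cNK. All 42 LrNK counts came from CD8KO sample 2+3. Ccr3 was at least 471.8-fold lower in LrNK WT than in cNK WT, which held 1778 counts, with the floor of 3 counts over the LrNK group. Ccr3 passed the low-count filter through cNK alone under either label, so its direction was fixed and its calls add no support. Under the CD8KO label the log2 difference was −5.09 ± 1.16 (adjusted p = 0.0276, edgeR), and limma-voom did not call it (adjusted p = 0.369, the highest over the alternatives, with 6.55e-07 the lowest). Markers of eosinophils and basophils, which are known to carry CCR3, summed to 1.58 to 5.47 CPM in LrNK CD8KO, 2.09 to 8.76 in LrNK WT, 1.66 to 2.02 in cNK CD8KO and 1.82 to 2.24 in cNK WT. The part of these cells in the Ccr3 level was not tested. Of the 8 markers, Prg2, Epx, Ear1 and Fcer1a were at 0 in LrNK WT, and Ear1 and Mcpt8 in cNK CD8KO. Prg2, Fcer1a and Ms4a2 were at 0 in cNK WT, and all 8 had counts in LrNK CD8KO.

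**Figure D2:**
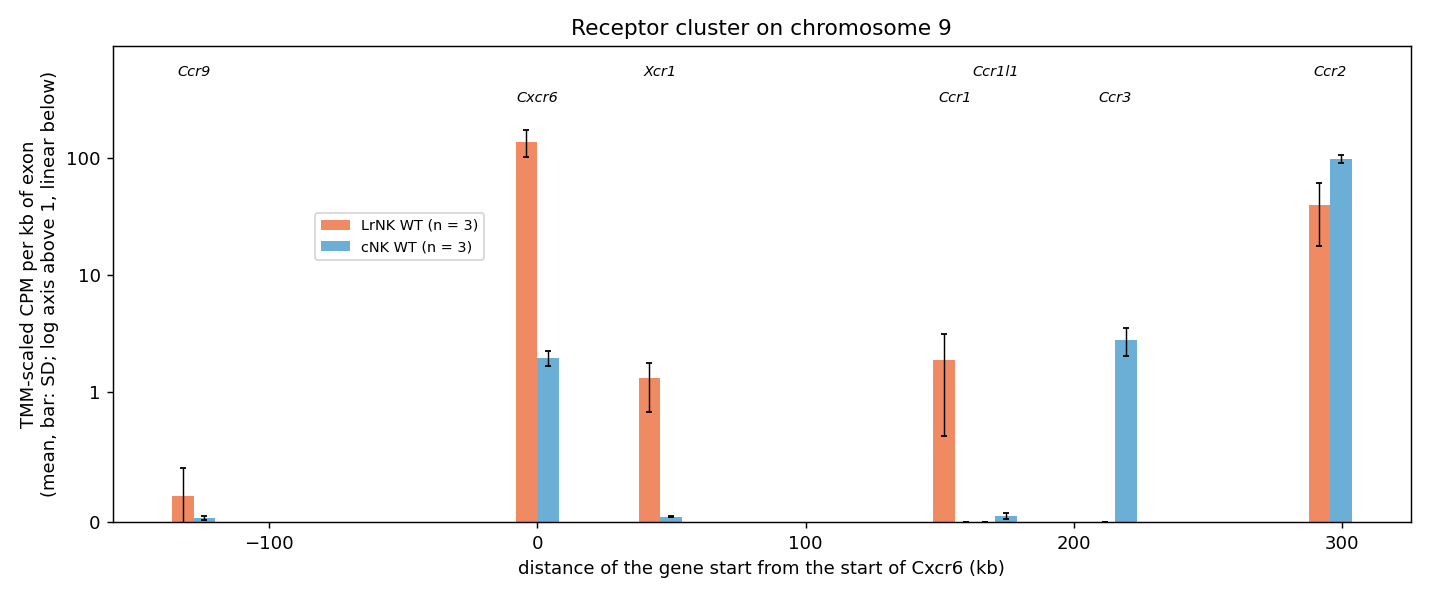
Mean level per kb of exon (TMM-scaled CPM per kb, log axis above 1 and linear below, bars are SD) of receptor genes around Cxcr6 on chromosome 9 in LrNK WT and cNK WT (n = 3 each), placed by the distance of the gene start from that of Cxcr6 in kb. LrNK WT bars are above cNK WT bars at Cxcr6 (137 against 1.96) and Ccr1 (1.88 against 0), and below them at Ccr3 (0 against 2.77) and Ccr2 (39.5 against 97.7).

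Along the cluster, Cxcr6 and Ccr1 were higher in LrNK WT, and Ccr3 and Ccr2, farther along, averaged lower. Per kb of exon, Cxcr6 averaged 137 CPM in LrNK WT and 1.96 in cNK WT, and Ccr1 averaged 1.88 in LrNK WT and 0 in cNK WT. Ccr3 averaged 0 CPM per kb in LrNK WT and 2.77 in cNK WT, and Ccr2 averaged 39.5 in LrNK WT and 97.7 in cNK WT. How reads that fit more than 1 gene were counted is not given in the sources used here, so levels of receptors with close paralogues, Ccr2 among them, are uncertain to that extent.

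Ccr2, the receptor that brings monocytes to inflamed tissue through CCL2, was high in cNK and uneven in LrNK. It had 786 and 237 CPM in LrNK CD8KO against 731, 720 and 810 in cNK CD8KO. The WT samples had 368, 98.5 and 335 CPM in LrNK against 681, 603 and 696 in cNK. The WT groups did not overlap, with LrNK lower, as for 30% of all genes tested in WT. The CD8KO groups overlapped. The log2 difference was −1.26 ± 0.46 in WT (adjusted p = 0.106, edgeR) and −0.49 ± 0.48 under the CD8KO label (adjusted p = 0.515, edgeR), and neither passed. DESeq2 and limma-voom called the WT difference (adjusted p = 0.0102 and 0.00586), and over all alternatives its adjusted p ran from 7.84e-11 to 0.239.

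Cx3cr1, the fractalkine receptor of monocytes and mature NK cells, varied widely in LrNK as well. It had 210 and 49.6 CPM in LrNK CD8KO against 69.2, 70.3 and 73.2 in cNK CD8KO. In WT it had 51.0, 15.6 and 53.4 CPM in LrNK against 67.0, 86.7 and 59.3 in cNK. LrNK lay below cNK without overlap in WT, as for 30% of all genes tested there, and on both sides of cNK under the CD8KO label. The log2 difference was −0.79 ± 0.45 in WT (adjusted p = 0.290, edgeR) and 0.94 ± 0.55 under the CD8KO label (adjusted p = 0.272, edgeR).

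Monocyte and neutrophil markers also varied between the LrNK samples. The 10 markers summed to 9360 and 3042 CPM in LrNK CD8KO samples 1 and 2+3, and to 2325, 793 and 4409 CPM in LrNK WT samples 1, 2+4 and 3. In cNK they summed to 300 to 325 CPM under the CD8KO label and 355 to 375 CPM in WT. All 10 had counts under the CD8KO label, Mpo was at 0 in LrNK WT, and Mpo and F13a1 were at 0 in cNK WT. LrNK CD8KO sample 1 had the highest Ccr2, Cx3cr1 and marker sum of the 5 LrNK samples, and LrNK WT sample 2+4 had the lowest of all 3. Between them the order differed, since LrNK WT sample 1 was second for Ccr2 and below 3 others in the marker sum. Of the 10 markers, 8 were highest in LrNK CD8KO sample 1 and 7 lowest in LrNK WT sample 2+4, while S100a8 and Mpo were highest in LrNK CD8KO sample 2+3. Lyz2 made up 7237 of the 9360 CPM in LrNK CD8KO sample 1. The pattern was not particular to these markers. The 8 Kupffer-cell markers summed to 359 and 188 CPM in LrNK CD8KO samples 1 and 2+3. They summed to 252, 96.6 and 211 CPM in LrNK WT samples 1, 2+4 and 3, and to 123 to 188 CPM in cNK. The 6 dendritic-cell markers were likewise highest in sum in LrNK CD8KO sample 1 (137 CPM) and lowest in LrNK WT sample 2+4 (35.7 CPM). The part of any of these cell types in the levels of Ccr2 and Cx3cr1 was not tested. Ccr1 was also lowest in LrNK WT sample 2+4, at 2.07 CPM. Its highest level, 8.97 CPM, was in LrNK WT sample 1, where the monocyte and neutrophil sum was below 3 others. Lyz2 averaged 1954 CPM in LrNK WT and 14.6 CPM in cNK WT. The part of other cell types in the Ccr1 level was not tested.

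Cxcr4, the CXCL12 receptor, and Gpr183, the oxysterol receptor, also had a wide LrNK spread. Cxcr4 had 98.8 and 228 CPM in LrNK CD8KO against 63.0, 53.3 and 43.2 in cNK CD8KO. The WT levels were 36.4, 99.1 and 105 CPM in LrNK against 52.4, 59.8 and 43.0 in cNK. The CD8KO groups did not overlap, with LrNK higher, as for 25.3% of genes tested under that label. In WT, LrNK sample 1 lay below every cNK sample. The log2 difference was 1.68 ± 0.36 under the CD8KO label (adjusted p = 0.0227, edgeR) and 0.66 ± 0.38 in WT (adjusted p = 0.293, edgeR).

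Gpr183 had 22.7 and 49.9 CPM in LrNK CD8KO against 4.79, 3.71 and 3.89 in cNK CD8KO. In WT it had 5.49, 39.6 and 14.1 CPM in LrNK against 4.30, 3.09 and 3.79 in cNK. LrNK lay above cNK in every sample under both labels, as for 25.3% of genes tested under the CD8KO label and 18.6% in WT. The log2 difference was 3.19 ± 0.35 under the CD8KO label (adjusted p = 0.00285, edgeR). In WT it was 2.44 ± 0.69 and just missed the threshold in edgeR (adjusted p = 0.0504), while DESeq2 called it (adjusted p = 0.00149), and over all alternatives its adjusted p ran from 6.53e-10 to 0.188.

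The B-cell and T-cell marker sums were highest in the sample where Cxcr4 and Gpr183 were highest. The 8 B-cell markers summed to 21.5 and 164 CPM in LrNK CD8KO samples 1 and 2+3, and to 11.9, 17.7 and 21.9 CPM in LrNK WT. They summed to 21.2 to 25.2 CPM in cNK CD8KO and 13.6 to 17.8 CPM in cNK WT, and all 8 had counts in every group. Cd79a averaged 21.9 ± 30.1 CPM in LrNK CD8KO and 2.04 ± 1.48 in LrNK WT (SD, n = 2 and 3). Gpr183 was nearly as high in LrNK WT sample 2+4, at 39.6 CPM, where the B-cell sum was 17.7 CPM. The 8 T-cell markers summed to 151 and 180 CPM in LrNK CD8KO samples 1 and 2+3, and to 104 to 127 CPM in LrNK WT. In cNK they summed to 77.6 to 89.8 CPM under the CD8KO label and 62.6 to 77.0 CPM in WT. Among LrNK samples, 5 of the 8 were highest in CD8KO sample 2+3 and 3 in CD8KO sample 1, and Cd8b1 was at 0 in LrNK WT. The part of B-cell and T-cell RNA in the Cxcr4 and Gpr183 levels was not tested.

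**Figure D3:**
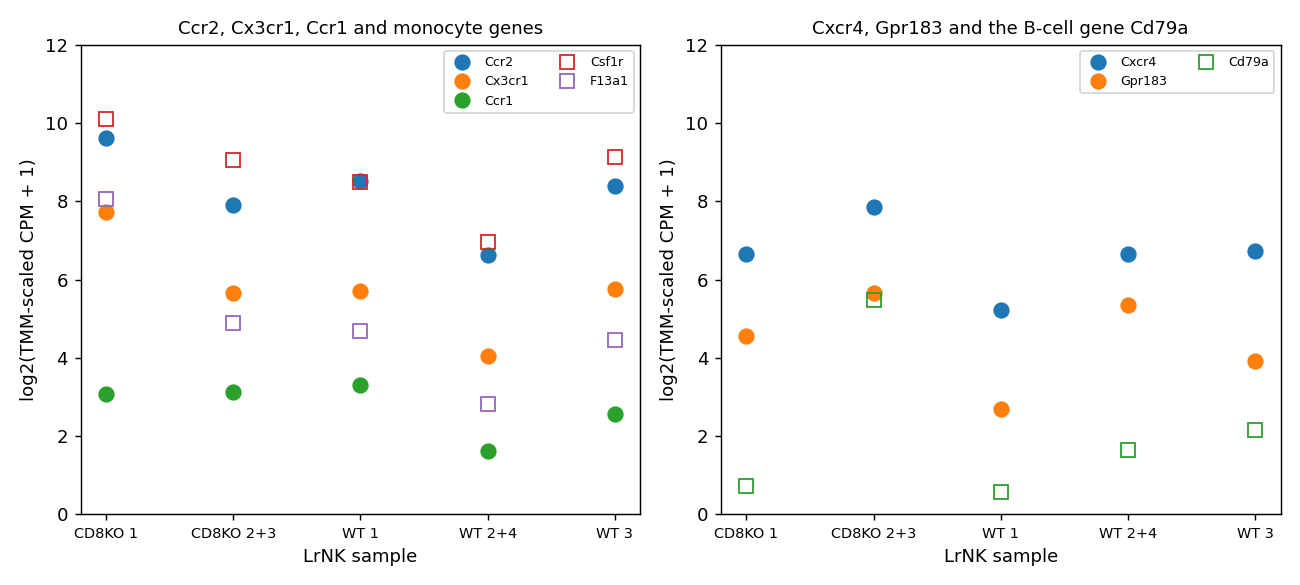
Levels in the 5 LrNK samples, as log2(TMM-scaled CPM + 1), of Ccr2, Cx3cr1 and Ccr1 with the monocyte genes Csf1r and F13a1 (left), and of Cxcr4 and Gpr183 with the B-cell gene Cd79a (right). Filled circles are receptors and open squares are markers. The genes plotted on the left are lowest in WT sample 2+4, as are 7 of all 10 monocyte and neutrophil markers, while Ccr1 is highest in WT sample 1. Those on the right are highest in CD8KO sample 2+3, as are all 8 B-cell markers.

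Several of these calls rested on which samples entered. Without any 1 of the 3 cNK CD8KO samples, the CD8KO-labelled comparison called only Cxcr6, Ccr1 and Gpr183, and Cxcr3, Cxcr4 and Ccr3 were lost. In WT the calls of Cxcr6, Cxcr3, Ccr1 and Ccr3 were made whichever sample was left out. Gpr183 and Cxcr4 were also called in WT without LrNK WT sample 1, and Ccr2 without LrNK WT sample 2+4. Under the CD8KO label, Cx3cr1 was 1.62 on the log2 scale with LrNK CD8KO sample 1 alone and −0.48 with sample 2+3 alone, and Ccr2 was 0.11 with sample 1 alone and −1.64 with sample 2+3 alone. Those 4 values compare 1 LrNK sample with 3 cNK samples. With only the LrNK WT samples that had fewer than 16000 detected genes, the log2 difference from cNK WT was −0.86 for Ccr2, −0.40 for Cx3cr1, 1.43 for Gpr183, 6.29 for Cxcr6 and 1.81 for Cxcr3. With only LrNK WT sample 2+4 it was −2.78 for Ccr2, −2.22 for Cx3cr1, 3.38 for Gpr183, 5.83 for Cxcr6 and 1.49 for Cxcr3.

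**Figure D4:**
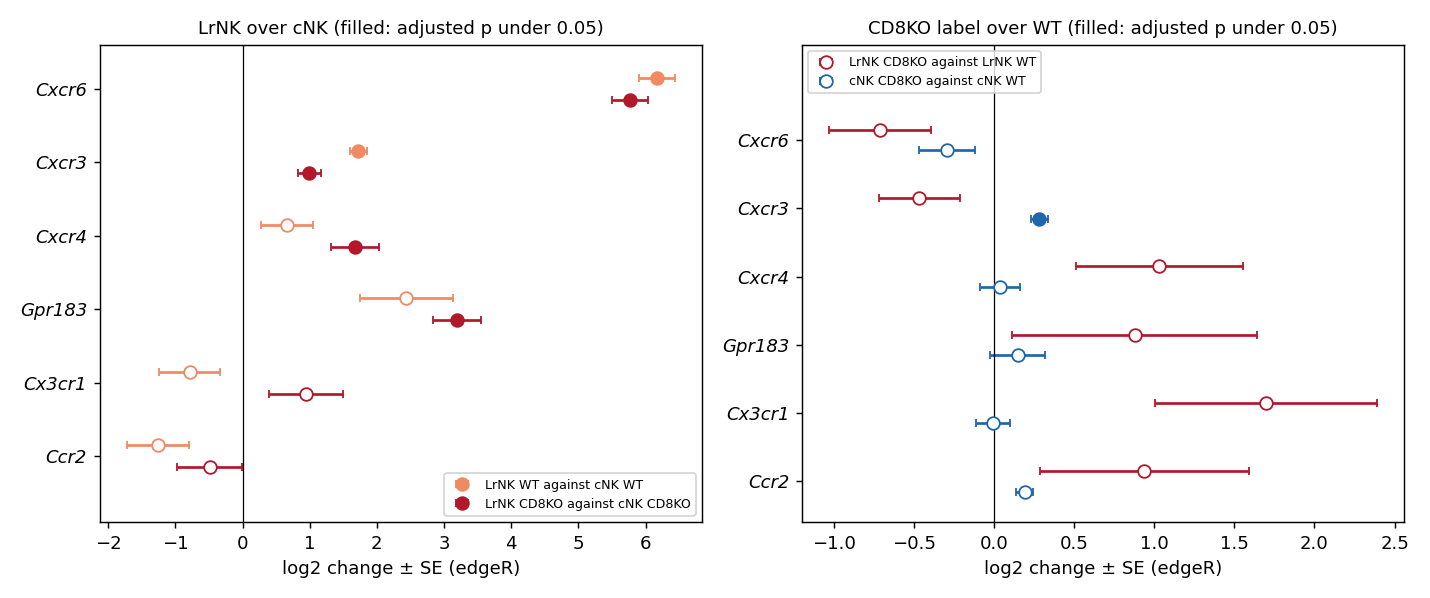
Log2 change ± SE (edgeR) of the 6 receptors with counts in every group, LrNK over cNK on the left and CD8KO label over WT on the right, with filled points for an adjusted p under 0.05. On the left Cxcr6 lies near 6 in both comparisons, and on the right Cxcr3 in cNK, at 0.28, is the only filled point.

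Per kb of exon, so that genes can be set beside each other, the order of levels differed between cell types. In LrNK CD8KO, Cxcr3 averaged 116 CPM per kb, followed by Cxcr4 at 90.5, Cxcr6 at 83.4, Ccr2 at 75.7, Cx3cr1 at 28.8 and Gpr183 at 12.6. Each of these overlapped the next in its sample range, while Ccr1 at 2.67 and Ccr3 at 0.0772 lay clear below. In LrNK WT, Cxcr3 at 160 CPM per kb and Cxcr6 at 137 overlapped and lay above all others. Cxcr4 at 44.3 and Ccr2 at 39.5 overlapped next, and Cx3cr1 at 8.88, Gpr183 at 6.84 and Ccr1 at 1.88 followed as a run in which neighbours overlapped. In cNK CD8KO the order was Ccr2 at 111 CPM per kb, Cxcr3 at 60.7, Cxcr4 at 29.4, Cx3cr1 at 15.7, Ccr3 at 3.09, Cxcr6 at 1.60 and Gpr183 at 1.43, where only Cxcr6 and Gpr183 overlapped. In cNK WT it was the same order, with Ccr2 at 97.7, Cxcr3 at 49.9, Cxcr4 at 28.6, Cx3cr1 at 15.8, Ccr3 at 2.77, Cxcr6 at 1.96 and Gpr183 at 1.29, and only Ccr3 and Cxcr6 overlapped.

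The second question was whether the receptors change with the CD8KO label, which the study uses to ask what CD8 T cells do for NK cells. In cNK, 1 receptor passed, Cxcr3, which was higher under the CD8KO label, against 0.499% of 16619 genes called higher and 1.31% called in either direction. Its 103, 111 and 101 CPM in cNK CD8KO all lay above the 90.7, 82.2 and 86.1 CPM in cNK WT. The log2 change was 0.28 ± 0.06, a 1.22-fold difference (adjusted p = 0.0187, edgeR). The call was lost without cNK CD8KO sample 2 (adjusted p = 0.169, edgeR) and when all 4 groups shared 1 estimate of spread (adjusted p = 1.00, edgeR), and DESeq2 gave the lowest adjusted p of the alternatives, 0.000164. Under the CD8KO label in cNK, 2 receptors lay above WT without overlap, Cxcr3 and Ccr2, as for 9.11% of all genes tested, and Cxcr6 lay below without overlap, as for 8.92%.

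Ccr2 averaged 754 ± 49.0 CPM in cNK CD8KO and 660 ± 49.8 CPM in cNK WT (SD, n = 3 each). Its log2 change of 0.19 ± 0.05 did not pass in edgeR (adjusted p = 0.119), while DESeq2 called it (adjusted p = 0.0334), and its alternatives ran from 0.00361 to 1.00. Cxcr6 averaged 3.09 ± 0.406 CPM in cNK CD8KO and 3.78 ± 0.570 CPM in cNK WT (SD, n = 3 each), a log2 change of −0.29 ± 0.18 (adjusted p = 0.516, edgeR). Cxcr4, Cx3cr1, Ccr3 and Gpr183 overlapped between the cNK groups, with log2 changes of 0.03, −0.01, 0.16 and 0.15, and Ccr1 had no counts to test.

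In LrNK, 0 of the 7 receptors tested passed, and edgeR called 0 of 16504 genes (0%), with 3.73% at an unadjusted p under 0.05. DESeq2 called 62 genes there, limma-voom 0 and the edgeR fit of all 4 groups 138, with no receptor among them. With no low-count filter, edgeR called 259 genes, Cxcr4 and Cx3cr1 among them, and with a replicate block 180 genes, with Cxcr4, Cx3cr1 and Ccr2 among them. In the block fit LrNK WT sample 3 has no partner of its number and few residual degrees of freedom remain, so its calls rest on little information on spread. Cxcr6 had 198 and 124 CPM in LrNK CD8KO, both below the 340, 220 and 232 CPM in LrNK WT. Cxcr3 had 236 and 165 CPM in LrNK CD8KO, both below the 312, 248 and 273 CPM in LrNK WT. Such a separation with LrNK CD8KO lower was found for 8.03% of all genes tested. Over the same samples the NK-cell marker sum was 4822 and 6812 CPM in LrNK CD8KO against 6228 to 8102 CPM in LrNK WT. The liver-resident marker sum was 843 to 862 CPM in LrNK CD8KO against 945 to 1419 CPM in LrNK WT. The part of NK-cell content in the Cxcr6 and Cxcr3 levels was not tested. The log2 change was −0.71 ± 0.32 for Cxcr6 and −0.47 ± 0.25 for Cxcr3 (adjusted p = 1.00 for each, edgeR).

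The other receptors overlapped between LrNK CD8KO and LrNK WT. Cx3cr1 averaged 130 ± 113 CPM in LrNK CD8KO and 40.0 ± 21.2 CPM in LrNK WT (SD, n = 2 and 3), a log2 change of 1.70 ± 0.69. Cxcr4 changed by 1.03 ± 0.52, Ccr2 by 0.94 ± 0.66, Gpr183 by 0.88 ± 0.77 and Ccr1 by 0.51 ± 0.78 on the log2 scale, with an adjusted p of 1.00 for each (edgeR). Over the alternatives the lowest adjusted p was 0.0405 for Cxcr4, 0.0438 for Ccr2, 0.466 for Gpr183 and 0.843 for Ccr1. Leaving out single samples moved the log2 change of Cx3cr1 between 0.31 (without CD8KO sample 1) and 2.39 (without CD8KO sample 2+3), and that of Ccr2 between −0.17 and 1.56 by the same omissions. Cxcr4 ranged from 0.30 (without CD8KO sample 2+3) to 1.52 (without CD8KO sample 1), Gpr183 from 0.20 (without CD8KO sample 2+3) to 1.89 (without WT sample 2+4) and Ccr1 from 0.12 to 1.11. Among LrNK samples with fewer than 16000 detected genes, 1 CD8KO against 2 WT, the log2 change of Cx3cr1 was 2.04, a value that rests on a single CD8KO sample. Its adjusted p ran from 1.2e-05 to 1.00 over all alternatives (edgeR, DESeq2 and limma-voom). Between the other samples, 1 of each label, its log2 change was 1.67, with no test. Over the same samples the monocyte and neutrophil sum was 9360 CPM in CD8KO sample 1 against 2325 and 4409 CPM in WT samples 1 and 3, and 3042 CPM in CD8KO sample 2+3 against 793 CPM in WT sample 2+4. Ccr3 was too low to test, with 42 counts in LrNK CD8KO and 0 in LrNK WT.

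The change with the label was then compared between the cell types, in 1 model of all 4 groups. No receptor passed, against 0.0415% of 19287 genes called, 8 in all, while 8.44% had an unadjusted p under 0.05. Cxcr3 pointed down in LrNK and up in cNK, and the difference between these changes was −0.72 ± 0.23 on the log2 scale (unadjusted p = 0.0107, adjusted p = 0.418, edgeR). For Cx3cr1 it was 1.74 ± 0.78 (adjusted p = 0.582, edgeR), for Cxcr4 1.02 (adjusted p = 0.712, edgeR) and for Cxcr6 −0.39 (adjusted p = 0.922, edgeR). Ccr3 was called by DESeq2 (adjusted p = 0.0291) and not by edgeR (adjusted p = 0.416), with a range of 0.0156 to 1.00 over the alternatives, and its LrNK side rests on the 42 counts of CD8KO sample 2+3.

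Other genes of the pathway were read from lists. Of the ligands of these receptors and the enzymes of GPR183 ligands, 13 of 15 tested were higher in LrNK than in cNK under the CD8KO label and 0 lower, and 7 of 11 were higher and 0 lower in WT. Over all genes tested, 15.4% were higher and 11.6% lower under the CD8KO label, and 10.9% higher and 9.83% lower in WT. Cxcl11, Ccl7 and Ccl12 had 0 counts in cNK CD8KO, and Ccl2, Cx3cl1 and Cxcl12 had 6, 4 and 10. In cNK WT, Cxcl11 and Ccl2 had 0 counts. These genes passed the low-count filter through LrNK alone, so they could only come out higher. The genes tested, and so the sets behind the list medians, differ between the CD8KO label and WT. Cxcl16, the CXCR6 ligand, averaged 31.0 ± 18.2 CPM in LrNK CD8KO and 0.745 ± 0.232 in cNK CD8KO, and 30.2 ± 18.6 CPM in LrNK WT and 0.694 ± 0.273 in cNK WT (SD, n = 2, 3, 3 and 3). Its log2 difference was 5.43 ± 0.49 under the CD8KO label (adjusted p = 0.00162, edgeR) and 5.48 ± 0.64 in WT (adjusted p = 0.00259, edgeR). Under the CD8KO label the CXCR3 ligand Cxcl9 was higher by 5.51 ± 0.38 and the CCR1 ligand Ccl9 by 5.53 ± 0.30, and in WT they were higher by 6.14 ± 0.85 and 4.57 ± 0.69. The median log2 difference of the ligand list was 5.51 under the CD8KO label and 4.57 in WT, against −0.05 under the CD8KO label and −0.08 in WT over all genes tested. The monocyte and neutrophil marker sums given above were higher in LrNK too, at 793 to 9360 CPM against 300 to 375 CPM in cNK. The 6 hepatocyte markers summed to 26.3 and 44.4 CPM in LrNK CD8KO and 18.7 to 54.1 CPM in LrNK WT, against at most 0.165 CPM in cNK. Dendritic-cell marker sums were 35.7 to 137 CPM in LrNK and 6.97 to 9.65 CPM in cNK, while Kupffer-cell sums overlapped. The part of these cell types in the ligand levels was not tested. In cNK, Ccl3, a ligand of CCR1, was lower under the CD8KO label (log2 −1.07 ± 0.08, adjusted p = 2.45e-06, edgeR), the 1 ligand called of 8 tested, against 0.812% of all genes called lower.

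Of 18 further receptors of the chemokine and chemoattractant family, 6 of 12 tested were higher in LrNK than in cNK under the CD8KO label and 2 lower, and 3 of 8 were higher and 1 lower in WT, beside the same shares of all genes (15.4% higher and 11.6% lower, and 10.9% higher and 9.83% lower). Ccr4 and Ccr8, called higher under the CD8KO label, had 2 and 4 counts in cNK CD8KO and were not tested in WT. They passed the low-count filter through LrNK alone, so they could only come out higher. Ccr7, the lymph-node homing receptor, Ccrl2, a chemerin-binding receptor that does not signal, and Xcr1, a marker of cross-presenting dendritic cells, were higher under both labels. The log2 differences of Ccr7, Ccrl2 and Xcr1 were 5.47 ± 0.83, 4.35 ± 0.47 and 4.54 ± 0.61 under the CD8KO label, and 2.69 ± 0.66, 3.54 ± 0.37 and 4.96 ± 0.63 in WT. Cmklr1, the signalling chemerin receptor, was lower, with log2 differences of −1.51 ± 0.12 under the CD8KO label and −3.10 ± 0.34 in WT. Dendritic-cell markers, Xcr1 among them, summed to 61.3 to 137 CPM in LrNK CD8KO, 35.7 to 114 in LrNK WT, 8.56 to 9.65 in cNK CD8KO and 6.97 to 8.80 in cNK WT. All 6 had counts except Clec9a, which was at 0 in cNK WT, and their part in the Ccr7 and Xcr1 levels was not tested. Ccr7 itself had 9.71 CPM in LrNK CD8KO sample 1 and 68.7 CPM in sample 2+3, against 0.768 to 1.03 CPM in cNK CD8KO. Dendritic-cell markers summed to 137 CPM in LrNK CD8KO sample 1 and 61.3 CPM in sample 2+3, and B-cell markers to 21.5 CPM in sample 1 and 164 CPM in sample 2+3. T-cell markers summed to 151 CPM in sample 1 and 180 CPM in sample 2+3. The part of B-cell and T-cell RNA in the Ccr7 level was not tested. The list's median log2 difference was 3.52 over the 12 genes tested under the CD8KO label and 1.09 over the 8 tested in WT. These sets of genes are not the same. With the label in LrNK or cNK, 0 of its genes passed.

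Of 30 genes that carry or end the receptor signal, all tested, 11 were higher and 5 lower in LrNK than in cNK under the CD8KO label, and 6 were higher and 5 lower in WT. Against the shares of all genes tested, 11.6% lower under the CD8KO label and 9.83% in WT, the 5 lower genes of 30 are not a result about the list, and the higher ones stand beside 15.4% under the CD8KO label and 10.9% in WT. Their median log2 difference was 0.29 under the CD8KO label, against −0.05 over all genes tested, and 0.19 in WT, against −0.08. The higher ones included Rgs1 and Rgs2, which end G-protein signals, and Grk3, a kinase that desensitises receptors. Their log2 differences were 4.22 ± 0.31, 3.41 ± 0.31 and 5.70 ± 0.30 under the CD8KO label, and 4.57 ± 0.41, 3.26 ± 0.55 and 4.34 ± 0.43 in WT. Among the lower ones were Pik3r5, a subunit of the PI3K that G proteins drive, and Dock2 and Elmo1, which turn the signal into actin movement. Their log2 differences were −1.23 ± 0.11, −0.85 ± 0.09 and −0.55 ± 0.10 under the CD8KO label, and −1.87 ± 0.17, −0.91 ± 0.20 and −0.81 ± 0.16 in WT. In cNK, 3 of the 30 were lower under the CD8KO label, Rgs1 (−0.30 ± 0.07), Rgs2 (−0.30 ± 0.06) and Rgs16 (−0.79 ± 0.16), and 0 higher, against 0.812% of all genes lower and 0.499% higher.

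Genes with the most similar pattern to each receptor were found by Pearson's r of log2 CPM over the 11 samples, among 9319 other genes whose log2 CPM averaged 2 or more (9320 for Ccr1 and Ccr3). The 11 samples are 5 LrNK and 6 cNK, so r mostly reads the gap between cell types. Cxcr6 was closest to Cish, Tnfsf10 and Aplp1 (r of 0.997, 0.997 and 0.996), and Ccr1 to Lcp2, Retreg1 and Dok1 (0.995, 0.993 and 0.993). Ccr3 was closest to Raph1, Gramd4 and Ttc13 (0.989, 0.986 and 0.985), and Cxcr3 to Rps6ka1, Tlr12 and Afg3l2 (0.986, 0.986 and 0.986). Ccr2 was closest to Mfap3, Hnrnph2 and Rnf6 (0.981, 0.980 and 0.969), and Gpr183 to Psd, Slc25a28 and Klf11 (0.980, 0.979 and 0.977). Cx3cr1 was close to Lair1 and Glud1 (0.977 and 0.971), and Cxcr4 to Rilpl2, Rxrb and Dhx40 (0.966, 0.962 and 0.961). Among the receptors themselves, r was 0.983 for Cxcr6 with Ccr1, 0.876 for Cxcr4 with Gpr183, 0.828 for Cx3cr1 with Ccr2 and −0.974 for Cxcr6 with Ccr3.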

How the data were processed

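RNA-seq of sorted NK cells was deposited as whole-number counts of reads per Ensembl gene, 1 table per library. The authors aligned reads with HISAT2 2.1.0 to GRCm38, per the submitters' processing notes; which tool counted them, whether strand was used and what was done with reads that fit several genes is not stated in the sources used here. RNA was extracted with Trizol and libraries came from the TruSeq RNA kit, per the labels' protocols. Of counts from 1 to 20, 49.5% to 65.2% were even in the libraries, and whether mates of a pair were counted separately is not given. Symbols and coordinates came from GENCODE M21, which matched 54495 of 54532 identifiers.

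Levels are CPM after TMM scaling over the 11 samples. Each comparison was tested on its own 2 groups with edgeR 4.0.16 (quasi-likelihood; filterByExpr with a minimum count of 10 and total of 15; Benjamini-Hochberg over all genes tested; called at an adjusted p under 0.05) in R 4.3.3, since the spread differed between cell types; the difference of changes used all 4 groups. DESeq2 1.42.0, limma 3.58.1 voom with sample quality weights, other scalings, no low-count filter, all 13 libraries separate, a replicate block and leaving out each sample were tried. The scripts were tested on simulated data. Bounds against a group at 0 use 3 counts over that group and cover counting error only. The replicate numbers were not taken to pair samples. The text names the 8 receptors, list genes called or otherwise among the 4 smallest p of their list, and the 3 most similar genes of each receptor; a few of these are not reported here. The members, lists and tests were chosen with earlier results of these data known. Detection-set counts of called receptors were added after seeing the data.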

Additional observations from a re-analysis of the deposited data

How the results depend on the processing

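Over 611 recomputed receptor changes, 546 were the same, 35 newly passed, 12 no longer passed, 17 changed sign and 1 moved. The same meant the same direction and side of the threshold. LrNK CD8KO against LrNK WT among samples with many detected genes had no test. There it meant a log2 change that differed from the main one by no more than its SE. The 1 that moved, Ccr1 with the label in LrNK, differed by more than that SE. Genes called with the CD8KO label in LrNK (0) became 259 with no low-count filter (2 receptors, Cxcr4 and Cx3cr1), 138 in the 4-group fit, 62 by DESeq2 and 22 with 13 separate libraries, with 0 to 0 genes and 0 to 0 receptors without each sample; 1 receptor, Cx3cr1, passed among LrNK samples with few detected genes, with a single CD8KO sample. In cNK the 218 genes became 590 with no filter, 1 in the 4-group fit, 512 by DESeq2 and 332 by voom, with 2, 0, 2 and 1 receptors, and 71 to 254 genes and 0 to 1 receptors without each sample. For LrNK WT against cNK WT, leaving out samples gave 1021 to 6856 genes and 4 to 6 receptors, and 8 receptors with the 1 LrNK WT sample that has many detected genes, a count made with the spread of cNK, which is narrower than that of LrNK. Under the CD8KO label it gave 1688 to 13004 genes and 3 to 8 receptors, where omitting an LrNK sample leaves 1. The difference of changes (8 genes) became 337 by DESeq2 (1 receptor, Ccr3), 68 with 13 libraries and 5 to 645 without each sample (0 to 0 receptors), and 2 receptors (Cx3cr1, Ccr2) or 5 (Cxcr3, Cxcr4, Cx3cr1, Ccr2, Ccr3) passed within the samples with few or many detected genes, where 1 or both LrNK groups hold 1 sample and the spread comes mostly from cNK, so these passes do not support a difference. The causes were not tested.

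The labels do not say that replicate numbers pair samples. Same-numbered samples correlated between −0.132 and 0.069 in the other comparisons, and at 0.306 and 0.522 in LrNK, where the 2 CD8KO deviations mirror each other and 2 pairs cannot settle it. With the replicate block, 180 genes and 3 receptors (Cxcr4, Cx3cr1, Ccr2) were called with the label in LrNK, 355 genes and 2 receptors (Cxcr3, Ccr2) in cNK, 1801 genes for LrNK WT against cNK WT and 2162 under the CD8KO label. In LrNK the block leaves few residual degrees of freedom, so its calls rest on little information on spread. Cx3cr1 with the label in cNK was 0.0118 with the block and 0.0356 by voom. Signs also changed for Ccr2 under the CD8KO label against cNK (0.11 within few detected genes), Cx3cr1 there (−0.48 within many) and the Ccr3 difference of changes (−0.15 within few). Without single samples, the label changes ranged from −0.17 to 1.56 for Ccr2 in LrNK, and in cNK from −0.13 to 0.17 for Cx3cr1, −0.0233 to 0.396 for Ccr3 and −0.11 to 0.17 for Cxcr4. LrNK CD8KO against cNK CD8KO ranged from −0.48 to 1.62 for Cx3cr1 and −1.64 to 0.11 for Ccr2, and the difference of changes from −0.36 to 1.39 for Ccr2 and −0.16 to 7.77 for Ccr3. Ccr3 had 0 to 42 counts and Ccr1 140 to 641 counts in each LrNK sample, and of the other receptors the lowest LrNK count was 241, of Gpr183 in LrNK WT sample 1.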
